A study of Mus musculus with 6 samples.

Results

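The integrated stress response and ATF4 target genes are 38 genes of the 23038 listed for each library. They were chosen by gene symbol from a list that was drawn up with earlier results of these same libraries known. The siQk against siNC differences given here are therefore a description of the members, and nothing is supported with them. The symbol of each member was found once in the table, and 37 of the 38 passed the filter on low counts (mean log2 CPM above 0, where CPM are counts scaled by the library total). The member that did not pass was Fgf21.

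The libraries hold poly-A RNA of NSC-34, a mouse cell line with motor neuron features that came from the fusion of a neuroblastoma with embryonic spinal cord cells, grown in 10% FCS DMEM. The 3 siNC libraries came from cells given control siRNA and the 3 siQk libraries from cells given siRNA against Qk, which encodes the Quaking RNA-binding proteins, and both groups were collected at the same time after transfection. The study used 3 different siRNAs against Qk, and the labels do not give which library received which, so siRNA and replicate cannot be told apart. The labels name no genetic change, the cell line is the only one in the series, and each library is named here by its group and by the replicate number in its label.

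The integrated stress response is the pathway by which a cell slows protein synthesis under stress. Kinases that sense heme shortage or oxidative stress (Eif2ak1, HRI), unfolded protein in the endoplasmic reticulum (Eif2ak3, PERK) or uncharged tRNA (Eif2ak4, GCN2) phosphorylate the translation initiation factor eIF2, which lowers translation in general and raises that of Atf4. ATF4 then drives genes for amino acid synthesis and uptake, tRNA charging and, with CHOP (Ddit3), feedback and cell death, while Ppp1r15a (GADD34) brings the phosphatase that removes the mark from eIF2. Most of this regulation is translational or by phosphorylation, which messenger RNA levels do not measure.

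Library totals ran from 43000503 to 53565950 counts and 16057 to 16516 genes had a count. Qk was lower in each siQk library (values are given in the order of replicates 1, 2 and 3 throughout), at 1.39, 1.71 and 1.10 RPKM (reads scaled by exon length and library total) against 9.67, 8.18 and 14.9 RPKM in siNC, with a log2 fold change of -3.0 (SE 0.34, adjusted p = 0.0149 by the quasi-likelihood test of edgeR). A pair of libraries stood apart in the principal components of all genes. On the first component, with 41.2% of the variance, siQk replicate 2 lay at 47.5 and the other 5 libraries between -23.4 and 9.59. On the second, with 28.9%, siNC replicate 3 lay at -42.6 and the others between 3.86 and 17.3. Of the markers of motor neurons and neuroblastoma, Chat, Mnx1 and Stmn2 were under 1 RPKM in every library, so the defining motor neuron markers Chat and Mnx1 were near 0, while Isl1, Tubb3, Nefl, Nefm, Hand2 and Gata2 were measured. Isl1, a motor neuron transcription factor, was higher in each siQk library, at 9.63, 7.80 and 8.33 RPKM against 4.83, 4.75 and 4.80 RPKM in siNC (log2 fold change 0.82, SE 0.10, adjusted p of 1.0 in edgeR). The neuronal tubulin Tubb3 overlapped, at 346.5, 317.6 and 141.9 RPKM in siNC and at 349.2, 186.4 and 318.5 RPKM in siQk. All 4 markers each of astrocytes, microglia and fibroblasts were under 1 RPKM in every library. The oligodendrocyte markers Mbp, Mog and Mag were also under 1 RPKM in every library, and in the endothelial list Pecam1 was at 2.32 to 4.87 RPKM and the other 2 under 1 RPKM. The part of these marker differences in the results was not tested.

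The sequence that ATF4 is known to bind, as a dimer with a C/EBP protein, is the C/EBP-ATF response element, and the stretches of the members' promoters that hold its core are shown here because they are the feature by which many of these genes are known as ATF4 targets. The core searched was TGATGNAA (N is any base) on both strands of RefSeq windows (GRCm38.p6) from 250 bases before to 50 bases after each transcription start. Of the 38 members 31 had a window, and Eif4ebp1, Cth, Slc7a5, Slc7a3, Cars, Nars and Wars had none. The core was present for 9 of the 31 members (29%) and for 1219 of 27025 genes in all (4.51%), and for the longer form TGATGNAAT, which holds the core, the shares were 12.9% of the members and 1.08% of all genes. The stretches of 8 members are shown. Each line gives 30 bases of the gene's own strand, 5′ to 3′, with the core or its reverse complement in capitals.

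Chac1: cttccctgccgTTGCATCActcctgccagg
Trib3: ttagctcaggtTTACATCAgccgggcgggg
Slc7a11 (upstream copy): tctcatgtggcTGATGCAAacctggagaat
Slc7a11 (downstream copy): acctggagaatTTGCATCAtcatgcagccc
Asns: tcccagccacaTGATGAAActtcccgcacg
Gars: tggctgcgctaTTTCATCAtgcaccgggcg
Fgf21: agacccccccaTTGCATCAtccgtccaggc
Nupr1: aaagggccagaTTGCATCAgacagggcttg
Vldlr: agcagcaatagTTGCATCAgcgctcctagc

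The stretches of Chac1 (chr2:119351038-119351067, plus strand), Gars (chr6:55037960-55037989, plus strand), Fgf21 (chr7:45615611-45615640, minus strand) and Slc7a11 (chr3:50443661-50443690 and chr3:50443642-50443671, minus strand) overlap no exon of the GENCODE M21 annotation. Those of Trib3 (chr2:152344028-152344057, minus strand), Asns (chr6:7693214-7693243, minus strand), Nupr1 (chr7:126625562-126625591, minus strand) and Vldlr (chr19:27216809-27216838, plus strand) overlap an annotated exon of the same gene. The core began 193 bases before the RefSeq start of Chac1, at -193, and at -139 in Fgf21, -110 in Nupr1, -30 in Gars, -23 in Asns and 15 in Trib3. Slc7a11 holds it at 2 places, at -66 and -47, and Vldlr holds it at -200. The 7 of them that were tested had values after knockdown from a log2 fold change of -0.81 in Trib3 to 0.04 in Slc7a11. For Trib3, the tested member with the largest absolute log2 fold change, the 150 bases before the RefSeq start (chr2:152344061-152344210, minus strand) are shown as well, and these letters hold no copy of the core.

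Trib3 upstream: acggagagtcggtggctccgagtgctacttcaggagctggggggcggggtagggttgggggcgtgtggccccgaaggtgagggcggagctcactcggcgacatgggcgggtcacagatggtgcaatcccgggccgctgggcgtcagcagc

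In the siNC cells, before any comparison, most members were abundant messages. The median over the 37 tested members of the siNC mean level was 100.6 RPKM, against 10.5 RPKM over the 12665 genes tested, and 34 of the 37 lay above the latter. Asns, which makes asparagine, headed the list at 792.0 ± 125.9 RPKM (SD, n = 3), above 99.8% of the genes tested. Gars, which charges glycine to its tRNA, followed at 453.0 ± 88.8 RPKM, Psat1, a serine synthesis enzyme, at 374.4 ± 40.5, Atf4 itself at 367.0 ± 77.2 and Slc7a5, a transporter of large neutral amino acids, at 361.9 ± 70.6. Asns lay above Gars by more than the larger SD of the pair, while Gars, Psat1, Atf4 and Slc7a5 each differed from the next by less than it. Ddit3, which codes for the stress-inducible factor CHOP, was at 300.8 ± 71.2 RPKM, above 98.7% of the genes tested. At the other end were Vldlr, a lipoprotein receptor (8.75 ± 0.977 RPKM), the cystine transporter Slc7a11 (4.16 ± 2.10), the arginine transporter Slc7a3 (0.458 ± 0.063) and the hormone Fgf21 (0.293 ± 0.025). RPKM depends on the exon length given in the files, which was 13.8% of the annotated exon bases for Ppp1r15a, 30.9% for Nupr1 and 50.8% for Ddit3, and also under that last share for Psph, Eif2ak1, Eif4ebp1 and Cars, so the order of these members is less sure.

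**Figure D1:**
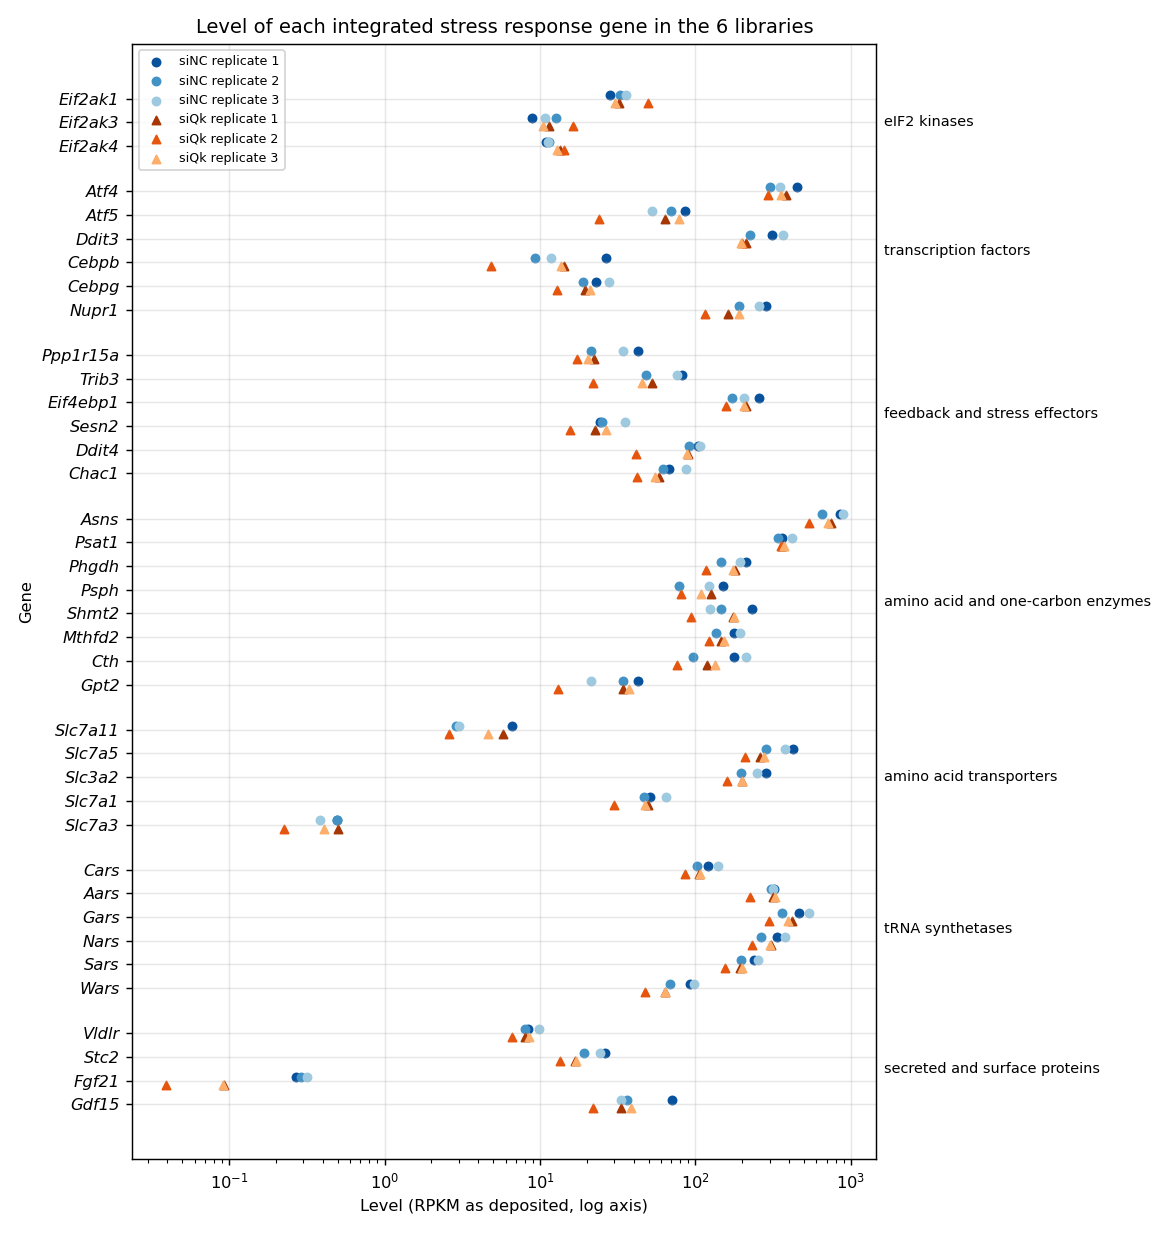
Level of the 38 members in the 6 libraries in RPKM on a log axis, with genes grouped by role, siNC as blue circles and siQk as orange triangles, 1 mark per library. Levels run from 0.0394 RPKM (Fgf21 in siQk replicate 2) to 882.9 RPKM (Asns in siNC replicate 3), and siQk replicate 2 is the leftmost mark of most rows outside the kinases.

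After knockdown of Qk the members as a group were lower, by little, and no member was called changed. Of the 37 tested members 33 had a log2 fold change below 0 (89.2%, against 49.2% of all genes tested), their median was -0.32 (a fold of 0.801) against 0.00 over all genes, and single members ran from -0.81 to 0.25. The call, at p under 0.01 and adjusted p under 0.1, was made for 0 members and for 1 gene of 12665, Qk (0.0079%), and the adjusted p of every tested member was 1 (quasi-likelihood test of edgeR). At an unadjusted p under 0.05 stood 9 members, all lower in siQk, where 2.89% of all genes passed, 1.69% lower and 1.2% higher. DESeq2 called 19 genes and the edgeR exact test 5, with 0 members among them in either, and each had 9 members at an unadjusted p under 0.05, where 3.63% and 3.32% of all genes passed. The groups did not overlap for 7 members, where 8.52% of all genes did not overlap. Of these, 6 were lower in siQk, namely Ddit3, Ddit4, Chac1, Slc7a5, Wars and Stc2 (4.07% of all genes), and 1 was higher, Eif2ak4 (4.45%). The list was chosen on this contrast, so nothing is read from these shares. Less message per cell and fewer cells expressing a gene cannot be told apart in these libraries.

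The lower level rested unevenly on the libraries. Without siQk replicate 2 the median log2 fold change of the members was -0.20 and 4 members stood at an unadjusted p under 0.05 (2.72% of all genes). Without siNC replicate 1 that count was 4 (4.26% of all genes) and without siNC replicate 3 it was 5 (4.43%), while without siNC replicate 2 it was 15 (3.25%). The groups did not overlap for 23 members without siNC replicate 2 (18.3% of all genes), but for 7 when the library left out was siNC replicate 1 (21.4%) or siNC replicate 3 (22.9%), and likewise for siQk replicate 2 (16.7%). With both libraries that stood apart left out, siNC replicate 3 and siQk replicate 2, the median was -0.07, 27 members were below 0 (51.5% of all genes), 0 had an unadjusted p under 0.05 (6.19%) and 7 had groups without overlap (37.3% of all genes). Gene by gene, the log2 fold change shrank by over 1.5 times or changed sign for 28 of the 37 members when 1 library was left out. This held for 23 members for siQk replicate 2, for 13 for siNC replicate 3 and for 11 for siNC replicate 1, and for 1 for each of the other 3 libraries. The remaining 9 members were Eif2ak4, Ddit3, Nupr1, Ppp1r15a, Slc7a5, Slc3a2, Sars, Wars and Stc2.

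**Figure D2:**
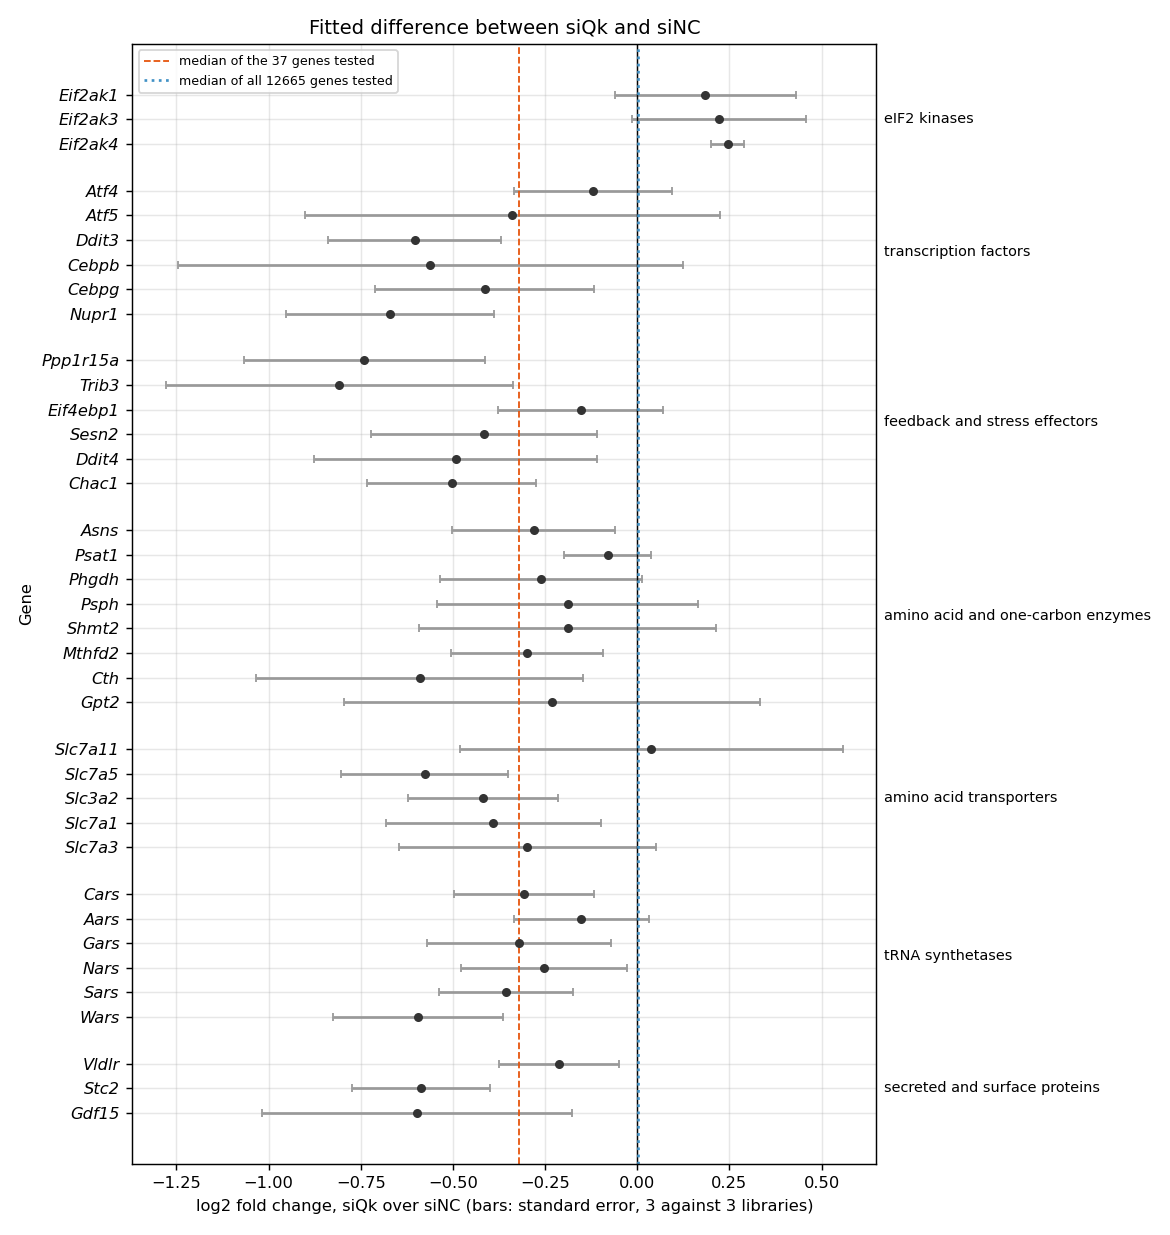
Fitted log2 fold change of siQk over siNC for the 37 tested members, grouped by role, with bars of 1 standard error (3 against 3 libraries), and with dashed and dotted lines at the medians of the members (-0.32) and of all 12665 genes tested (0.00). The 3 kinases and Slc7a11 lie right of 0 and the other 33 members left of it.

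The 3 kinases at the top of the pathway had log2 fold changes above 0, as did 1 other member, Slc7a11. Eif2ak4 (GCN2) was at 11, 11.4 and 11.3 RPKM in siNC and at 13.5, 14.2 and 12.9 RPKM in siQk, so its groups did not overlap. Its log2 fold change was 0.25 (SE 0.04), the highest of the members. Its unadjusted p was 0.119 by the quasi-likelihood test of edgeR. Eif2ak3 (PERK) was at 8.90, 12.6 and 10.8 RPKM in siNC and 11.5, 16.4 and 10.5 RPKM in siQk (log2 fold change 0.22, SE 0.24), only siQk replicate 2 lay above all siNC libraries, and without it the value was 0.01. Eif2ak1 (HRI) had the same form, with 28.4, 32.7 and 35.5 RPKM against 32.0, 49.6 and 30.5 RPKM (log2 fold change 0.19, SE 0.25), and without siQk replicate 2 its value was -0.07. Exons of Eif2ak1 share 659 bases with Aimp2 and Ankrd61 on the opposite strand, and the library kit keeps no strand.

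All 6 transcription factors had log2 fold changes below 0, with a median of -0.49. Atf4 (GRCm38 chromosome 15, 80255184 to 80257541, plus strand), the factor after which the ATF4 targets are named, differed least of the 6. It was at 451.6, 300.3 and 349.0 RPKM in siNC and at 383.9, 294.0 and 353.0 RPKM in siQk, the groups overlapped, and its log2 fold change of -0.12 (SE 0.21) became 0.05 without siNC replicate 1. Ddit3 (chromosome 10, 127290774 to 127296288, plus strand) was at 311.8, 224.7 and 365.9 RPKM in siNC and at 211.1, 198.6 and 197.3 RPKM in siQk. The 3 siQk values lay close together and below all siNC values (log2 fold change -0.60, SE 0.23). Its annotated exons share 186 bases with other gene models, among them Mars on the opposite strand, whose own log2 fold change was -0.10 (SE 0.15). Nupr1, a small chromatin protein induced by stress, was at 282.2, 191.2 and 255.6 RPKM in siNC and at 161.3, 115.9 and 189.4 RPKM in siQk (log2 fold change -0.67, SE 0.28). Its groups were apart in RPKM by the gap from 189.4 to 191.2 and overlapped after TMM scaling. The dimer partner Cebpg had a log2 fold change of -0.41 (SE 0.30), which was -0.23 without siQk replicate 2. Atf5, translated under stress like Atf4, and Cebpb, another partner, varied widely, with log2 fold changes of -0.34 (SE 0.56) and -0.56 (SE 0.69) that became 0.02 without siQk replicate 2 and 0.01 without siNC replicate 1. Cebpb ran from 9.34 to 26.4 RPKM among the siNC libraries alone.

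The 6 feedback genes and stress effectors were also all below 0, with a median of -0.50, and hold the lowest values of all tested members. Trib3 (chromosome 2, 152337422 to 152344032, minus strand), a pseudokinase that restrains ATF4 and AKT, was at 81.6, 48.4 and 75.5 RPKM in siNC and at 52.9, 21.8 and 45.0 RPKM in siQk. The groups overlapped through siNC replicate 2 and siQk replicate 1, and the log2 fold change was -0.81 (SE 0.47). Ppp1r15a, the inducible phosphatase subunit, was at 42.4, 21.4 and 34.4 RPKM against 22.4, 17.2 and 20.4 RPKM (log2 fold change -0.74, SE 0.33), and again siNC replicate 2 lay among the siQk values. Chac1, which degrades glutathione, was at 67.7, 61.6 and 86.5 RPKM in siNC and at 58.5, 42.1 and 54.9 RPKM in siQk, without overlap (log2 fold change -0.50, SE 0.23). Ddit4, an inhibitor of mTORC1 signalling, did not overlap either, at 104.2, 91.4 and 106.2 RPKM against 89.0, 41.2 and 88.3 RPKM (log2 fold change -0.49, SE 0.38), and most of its difference lay in siQk replicate 2. Sesn2, a leucine sensor upstream of mTORC1, had -0.42 (SE 0.31). Eif4ebp1, which holds back cap-dependent translation, had -0.15 (SE 0.22).

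The 8 enzymes of amino acid and one-carbon metabolism were all below 0 with a smaller median of -0.25, and the siQk and siNC libraries overlapped for each of them. Asns (chromosome 6, 7675169 to 7693254, minus strand) was at 844.9, 648.3 and 882.9 RPKM in siNC and at 742.1, 537.6 and 715.9 RPKM in siQk (log2 fold change -0.28, SE 0.22). In both groups replicate 2 was the lowest. Cth, which makes cysteine from cystathionine, had the lowest value of the enzymes at -0.59 (SE 0.44), which was -0.32 without siNC replicate 3, and its siNC libraries alone ran from 96.6 to 211.2 RPKM. The 3 enzymes of serine synthesis had log2 fold changes of -0.26 for Phgdh (SE 0.27, and -0.09 without siQk replicate 2), -0.19 for Psph (SE 0.35) and -0.08 for Psat1 (SE 0.12). Psat1 varied little, at 356.3 to 370.3 RPKM in the siQk libraries. The mitochondrial folate enzymes Mthfd2 and Shmt2 were at -0.30 (SE 0.21) and -0.19 (SE 0.40), and Gpt2, a mitochondrial alanine aminotransferase, at -0.23 (SE 0.57). Leaving out 1 library gave a value above 0 for Psat1 (0.04), Psph (0.02), Shmt2 (0.12) and Gpt2 (0.11).

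Of the 5 amino acid transporters 4 were below 0. The subunits of the heterodimer LAT1-4F2hc, Slc7a5 and Slc3a2, differed most. Slc7a5 was at 425.2, 285.8 and 374.7 RPKM in siNC and at 260.2, 206.7 and 274.8 RPKM in siQk, without overlap (log2 fold change -0.58, SE 0.23). Slc3a2 was at 285.1, 196.7 and 247.8 RPKM against 198.7, 159.1 and 198.6 RPKM (log2 fold change -0.42, SE 0.20), where siNC replicate 2 lay at the upper siQk values. Another partner of Slc3a2 is the cystine transporter Slc7a11. It was at 6.58, 2.89 and 3.01 RPKM in siNC and at 5.78, 2.59 and 4.63 RPKM in siQk, with a log2 fold change of 0.04 (SE 0.52) that ran from -0.23 to 0.53 when 1 library was left out. The arginine transporters Slc7a1 and Slc7a3 had log2 fold changes of -0.39 (SE 0.29) and -0.30 (SE 0.35), which were -0.20 and -0.03 without siQk replicate 2, and the latter rests on 32 to 67 counts per library.

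All 6 tRNA synthetases among the members were below 0, with a median of -0.31. Wars, for tryptophan, was at 92.4, 68.5 and 97.2 RPKM in siNC and at 63.3, 47.5 and 63.6 RPKM in siQk, without overlap (log2 fold change -0.60, SE 0.23). Gars was at 464.1, 359.2 and 535.8 RPKM against 418.6, 297.8 and 395.1 RPKM, with overlap (log2 fold change -0.32, SE 0.25). Sars, Cars and Nars, for serine, cysteine and asparagine, had -0.36 (SE 0.18), -0.31 (SE 0.19) and -0.25 (SE 0.22). Aars, for alanine, was even across siNC at 318.2, 308.1 and 313.6 RPKM and was at 313.1, 222.5 and 325.1 RPKM in siQk, so that its log2 fold change of -0.15 (SE 0.18) lay in siQk replicate 2 and was 0.00 without it. Of the annotated exon bases of Aars 1403 are shared with other gene models, mainly Exosc6 on the same strand.

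Among the secreted and surface proteins Stc2, a secreted glycoprotein linked to calcium and stress, was at 26.1, 19.3 and 24.3 RPKM in siNC and at 16.8, 13.5 and 17.0 RPKM in siQk, without overlap (log2 fold change -0.59, SE 0.19). The stress cytokine Gdf15 was at 70.7, 36 and 33.1 RPKM against 33.4, 21.9 and 38.3 RPKM (log2 fold change -0.60, SE 0.42), and siNC replicate 1 alone stood high. Vldlr had a log2 fold change of -0.21 (SE 0.16). Fgf21, an endocrine factor, had 13, 13 and 13 counts in siNC and 4, 2 and 4 counts in siQk, all near the limit of detection. It was left out of the main fit by the filter. In the fit without a filter its log2 fold change was -1.99 (SE 0.25) and its adjusted p was 0.996 in edgeR. That SE is the spread between libraries with a prior count of 2, which at so few counts is not a reliable measure of error.

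**Figure D3:**
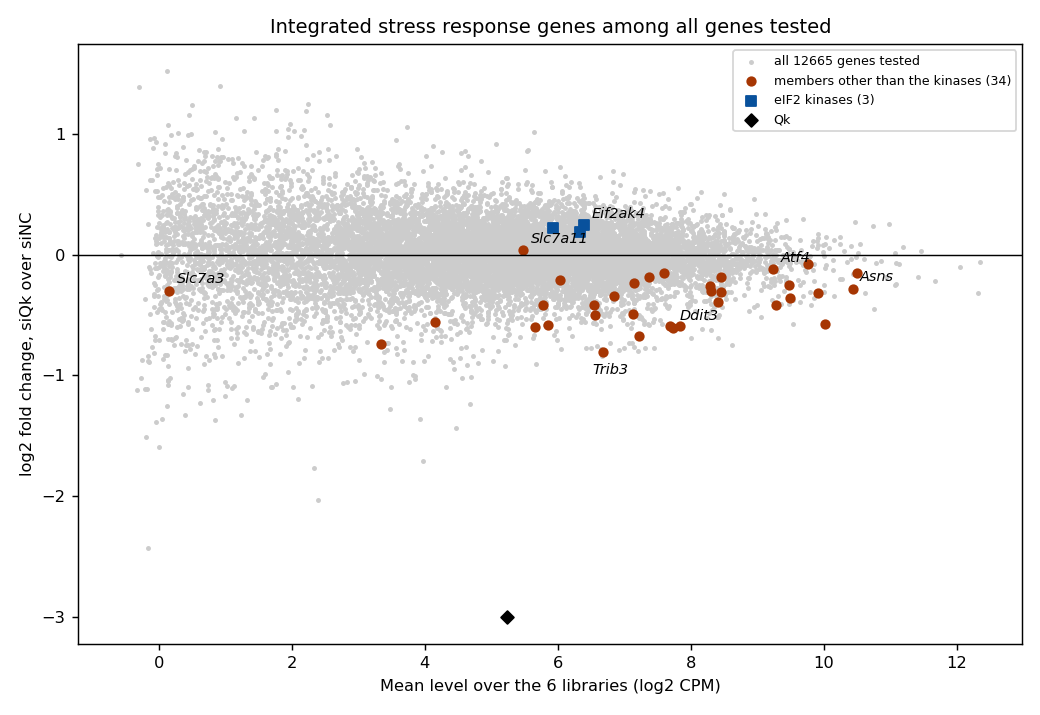
Log2 fold change of siQk over siNC against the mean level over the 6 libraries (log2 CPM) for the 12665 genes tested, with the 34 tested members other than the kinases in red, the 3 kinases as blue squares and Qk as a black diamond. Most members lie in the upper part of the level range and, apart from Qk at -3.0, no marked gene is beyond -0.81 or 0.25.

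Most members shared their lowest library, and the medians of the members differed within groups as well as between them. Correlation between members was not computed, and some went opposite ways in the same library. In siNC replicate 3 Gpt2 was at -0.57 and Cth at 0.46 against the siNC mean, on the log2(RPKM + 0.1) scale. The lowest of the 6 libraries was siQk replicate 2 for 32 of the 37 members (86.5%), where it was the lowest for 24.1% of all genes. The highest was siNC replicate 3 for 17 members (45.9%, against 22.5% of all genes) and siNC replicate 1 for 16 (43.2%, against 19.1%). Against the siNC mean, the median log2 difference of the 37 members was 0.11, -0.27 and 0.12 in the siNC libraries and -0.12, -0.64 and -0.13 in the siQk libraries, on the log2(RPKM + 0.1) scale. The siNC replicate 2 value thus lay below those of siQk replicates 1 and 3. Over all genes tested these medians ran from -0.05 to 0.06.

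Library by library, siQk replicate 1 was lower than siNC replicate 1 for 33 of the 37 members and lower than siNC replicate 3 for 28, yet lower than siNC replicate 2 for 12, with a median log2 ratio of 0.06. For siQk replicate 3 the counts were 30, 29 and, against siNC replicate 2, 11 (median log2 ratio 0.11). For siQk replicate 2 they were 34, 34 and 32, with median log2 ratios of -0.86 against siNC replicate 1, -0.80 against replicate 3 and -0.33 against replicate 2. So the sign of the median log2 ratio held against all 3 siNC libraries only for siQk replicate 2. Between same-numbered libraries the median log2 ratios were -0.26, -0.33 and -0.37 for replicates 1, 2 and 3. Whether these numbers mark pairs is not known. The SD of log2 CPM among the 3 siNC libraries had a median of 0.31 over the members and 0.26 over all genes, and among the 3 siQk libraries 0.31 and 0.20. Above the all-gene median of that SD lay 27 members in siNC and 28 in siQk.

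Outside the kinases siQk replicate 2 had the lowest median in every role, and siNC replicate 2 the lowest of the siNC libraries. In siQk replicate 2 the median against the siNC mean was -0.94 for the transcription factors, -0.85 for the feedback genes and effectors, -0.77 for the transporters and also for the 3 secreted and surface proteins tested (-0.77), -0.59 for the enzymes and -0.52 for the synthetases, and it was 0.61 for the kinases. In siQk replicates 1 and 3 the same medians lay between -0.39 and -0.04 outside the kinases, which were at 0.11 and -0.03. In siNC replicate 2 they lay between -0.30 and -0.24 outside the kinases.

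**Figure D4:**
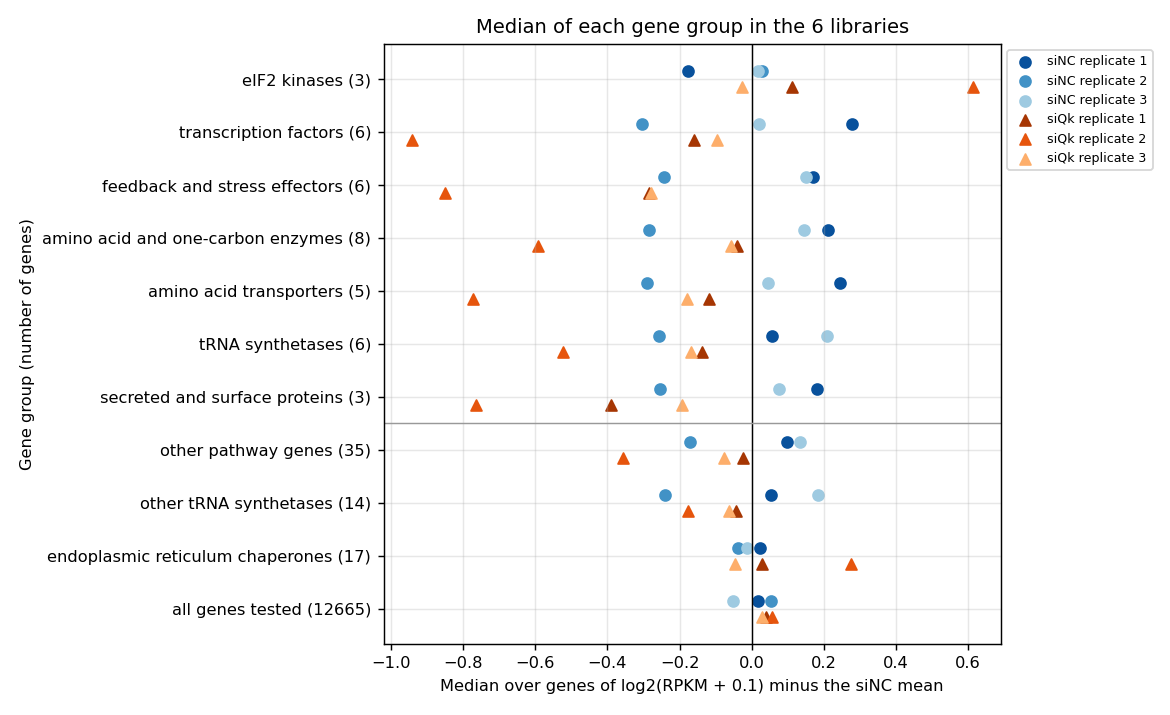
Median over the genes of each group of log2(RPKM + 0.1) minus the siNC mean, for the 6 libraries (siNC as blue circles, siQk as orange triangles), with the member groups above the grey line and the other gene lists and all 12665 tested genes below it. In the member groups other than the kinases siQk replicate 2 lies furthest left, between -0.94 and -0.52, and siNC replicate 2 lies left of the other siNC libraries.

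Of 35 other genes of the pathway, which are the eIF2 and eIF2B subunits, phosphatase parts, further sensors and further ATF4 targets, 26 were below 0 and 9 above, with a median of -0.11, and 0 were called. Leaving out siNC replicate 3 gave a median of -0.06, leaving out siNC replicate 2 gave -0.19, and leaving out both libraries that stood apart gave -0.04. At an unadjusted p under 0.05 stood 2 of them, both lower and without overlap of the groups. Slc1a5, a glutamine transporter, was at 163.3, 127.7 and 142.2 RPKM in siNC and at 103.4, 96.2 and 112.6 RPKM in siQk (log2 fold change -0.50, SE 0.13). Atf6, the membrane-bound sensor of another arm of the unfolded protein response, was at 49.7, 49.2 and 75.4 RPKM against 41.2, 31.4 and 38.1 RPKM (log2 fold change -0.69, SE 0.26). The value of Atf6 was -0.42 without siNC replicate 3 and -0.31 without both libraries that stood apart. Both genes had an adjusted p of 1 in the quasi-likelihood test of edgeR.

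The 17 endoplasmic reticulum chaperones and folding genes, which ATF6 and XBP1 are known to drive, were split, with 7 below 0 and 10 above and a median of 0.04. That median was -0.01 without siNC replicate 2 and -0.04 without siQk replicate 2, so no direction is given. Creld2 was the only one at an unadjusted p under 0.05, with 83.8, 67.9 and 68.9 RPKM in siNC and 84.0, 138.3 and 90.9 RPKM in siQk (log2 fold change 0.48, SE 0.24, adjusted p of 1 in edgeR), and its value was 0.23 without siQk replicate 2 and 0.21 without both libraries that stood apart. In siQk replicate 2, where the members were lowest, the median of these chaperones was 0.28 above the siNC mean on the log2(RPKM + 0.1) scale, while that of the 35 other pathway genes was -0.36 in the same library and -0.17 in siNC replicate 2.

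The 14 other cytosolic tRNA synthetases had 10 log2 fold changes below 0 and 4 above, a median of -0.11 and 0 at an unadjusted p under 0.05. The 6 synthetases among the members had -0.31. The 2 medians were not tested against each other, and that of the 14 was 0.00 without siNC replicate 3 and -0.27 without siNC replicate 2. Against the siNC mean, their median was -0.18 in siQk replicate 2 and -0.24 in siNC replicate 2 on the log2(RPKM + 0.1) scale.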

How the data were processed

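Poly-A RNA was sequenced from 3 siNC and 3 siQk cultures of NSC-34 cells with a kit that keeps no strand. The authors aligned reads with OLego and counted them per gene with Quantas. The labels name mm10. The deposited files give per gene an expected count, an exon length and an RPKM, and the deposited RPKM equals the count scaled by exon length and column total. Expected counts (21.9% to 22.9% not whole) were rounded, scaled by TMM (factors 0.957 to 1.02) and filtered at a mean log2 CPM above 0, which left 12665 genes. siQk was compared with siNC by the quasi-likelihood test of edgeR 4.0.16 (R 4.3.3), and p-values were adjusted over all genes tested (Benjamini-Hochberg). A gene was called at p under 0.01 and adjusted p under 0.1. Standard errors come from the spread of log2 CPM (prior count 2) between libraries. With 3 against 3 libraries an exact permutation test has 20 arrangements and cannot go below 0.1.

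The members, gene lists and tests were chosen with earlier results of these data known. Named genes were Qk, all members and, from each other list, up to 4 genes at an unadjusted p under 0.05. Sequence upstream of the start was to be shown for the 3 tested members with the largest absolute log2 fold change, and is shown for Trib3, since the 150 bases of Nupr1 and Ppp1r15a overlap annotated exons. Positions of genes come from GENCODE M21 (GRCm38). Some marker genes and the stretches of 1 member with the core are not reported here. On simulated counts for this comparison (12665 genes) the test recovered 64.9% of genes changed by a log2 value of 1 and 96.3% of those changed by 2. No change between 0 and 1 was simulated. The tested members lay between -0.81 and 0.25, so recovery at their values is not known. Alternatives were other scalings and filters, the edgeR exact test, DESeq2 1.42.0, a replicate block, each library left out, both libraries that stood apart left out, another pseudocount (1 RPKM) and a longer motif. The counts of members below 0, at an unadjusted p under 0.05 and shrinking by over 1.5 times were added after the data were seen. The main fit did not pair libraries by replicate number, and the labels do not say whether they were paired. The correlations of same-numbered libraries' deviations across genes were 0.21, 0.02 and -0.17. These values cannot decide whether the libraries were paired.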

Additional observations from a re-analysis of the deposited data

How the results depend on the processing

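No member was called in any of the 14 other fits. Over all genes the edgeR exact test called 5 and DESeq2 19, and leaving out 1 library gave 0 to 1, with 0 without siNC replicate 1. Members at an unadjusted p under 0.05 numbered 9, and 15 with the replicate block, which changed no call and gave a median of -0.35. Over all genes the shares were 2.89% and 3.54%. Leaving out 1 library gave 4 to 15 members and 2.3% to 4.43% of all genes, and leaving out siNC replicate 3 and siQk replicate 2 together gave 0 members and 6.19% of all genes. Members without overlap of the groups numbered 7 to 23 when 1 library was left out, where 13.5% to 22.9% of all genes did not overlap. The longer motif was in the promoters of 12.9% of the members. Leaving out 1 library changed the sign for Eif2ak1 (-0.072 to 0.302), Atf4 (-0.267 to 0.048), Atf5 (-0.689 to 0.018), Cebpb (-0.845 to 0.014), Psat1 (-0.167 to 0.039), Psph (-0.432 to 0.024), Shmt2 (-0.346 to 0.115), Gpt2 (-0.494 to 0.112), Slc7a11 (-0.225 to 0.525) and Aars (-0.261 to 0.001). Without both libraries the sign changed for Sesn2 (0.005), Psat1 (0.055), Psph (0.035), Aars (0.033), Nars (0.021) and Vldlr (0.013), where leaving out 1 library gave -0.601 to -0.188 for Sesn2, -0.409 to -0.102 for Nars and -0.299 to -0.089 for Vldlr. Of the 574 other fits of named genes, 552 kept both their sign and their side of the threshold, and 21 changed sign without crossing it. The remaining 1, Qk without siNC replicate 1 (-3.09, adjusted p = 0.125 in edgeR), kept its sign but was no longer past the threshold. The cause was not tested. Counting error is small at these depths except for Fgf21 and Slc7a3, so the spread between 3 libraries limits precision.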
